A study of Arabidopsis thaliana with 9 samples.

Results

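The photoreceptors of Arabidopsis thaliana are the proteins through which the plant senses light. The genes described here are 10 named receptor genes, chosen by locus identifier: 5 phytochrome genes (PHYA to PHYE), 2 cryptochrome genes (CRY1 and CRY2), 2 phototropin genes (PHOT1 and PHOT2) and UVR8. They are 10 of the 33977 gene rows in each deposited gene table, and all 10 had reads in all 3 tables. The RNA came from whole seedlings of ecotype Col, aged 4 days and kept on MS plates under continuous white light. It was sequenced from a myb30 mutant, a line overexpressing MYB30 (MYB30-OE) and the wild type (Col), with 3 libraries for each genotype and 9 in all. The labels name neither the mutant allele, nor the promoter that drives the transgene, nor the number of lines or pooled plants, and they do not say whether replicate libraries stem from separate cultures. The p-values therefore measure the spread between these libraries, which may be technical. In whole seedlings, fewer cells of a type and less RNA per cell cannot be told apart.

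Phytochromes carry a bilin chromophore and switch between a red-absorbing and a far-red-absorbing form. The active form moves into the nucleus, where it binds PHYTOCHROME-INTERACTING FACTORs (PIFs) and promotes their removal. Cryptochromes are flavoproteins that absorb blue light and restrain the COP1-SPA ubiquitin ligase. Phototropins are blue-light-activated kinases of the plasma membrane that steer bending towards light, chloroplast movement and stomatal opening. UVR8 absorbs UV-B through tryptophans of the protein itself, and its monomer also acts on COP1. MYB30 is an R2R3-MYB transcription factor reported to bind phytochromes A and B and to promote accumulation of PIF4 and PIF5 protein in light-grown seedlings, and the series contrasts its loss and its gain. In these data, transcripts of CRY1 and PHOT2 were lower in myb30 than in Col, while those of the phytochromes and UVR8 did not pass a test in any comparison.

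For each pair of genotypes the deposited tables hold 3 columns, the log2 fold change, the average log2 CPM (counts of reads scaled to library size) and the p-value, with no values of single libraries. A level of each genotype was derived from the fold change and the average and is called implied CPM here. An approximate standard error (SE) and 95% interval were derived from the fold change and its p-value. A gene passed at a Benjamini-Hochberg adjusted p under 0.05 over all genes with reads. The tables imply a mean of 33136600 to 35210900 reads in genes per library. MYB30 itself stood at 4.55 implied CPM in myb30, 621.7 in MYB30-OE and 31.96 in Col. The sign of the fold changes was read from that gene, so it is no check of the labels.

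The photoreceptor transcripts lay between 12.97 and 357.4 implied CPM in Col, so that the lowest of them, PHYD, still rested on 425 to 461 implied reads per Col library. PHOT1, the main phototropin of weak blue light, had 326.5 implied CPM in myb30, 350.3 in MYB30-OE and 357.4 in Col. PHOT2, which adds the chloroplast avoidance response in strong light, had 184 in myb30, 263 in MYB30-OE and 252 in Col. PHYA, the light-labile phytochrome of far-red sensing, had 271 implied CPM in myb30, 242 in MYB30-OE and 236 in Col. Of these 3 genes, PHOT2 showed the widest spread among the genotypes, with myb30 lowest. CRY1, the receptor of seedling de-etiolation in strong blue light, had 74.9 implied CPM in myb30, 122 in MYB30-OE and 108 in Col. CRY2, a blue-light receptor degraded in blue light and known for its part in flowering time, had 97.1 implied CPM in myb30, 118 in MYB30-OE and 104 in Col. UVR8 had 103.8 implied CPM in myb30, 99.1 in MYB30-OE and 106.9 in Col. CRY1 and CRY2 were lowest in myb30 and highest in MYB30-OE, with a wider spread for CRY1. PHYB, the main light-stable phytochrome of red light, had 72.9 implied CPM in myb30, 68.9 in MYB30-OE and 74.9 in Col. PHYC, PHYD and PHYE, light-stable phytochromes with smaller roles, ranged from 15.1 to 27.9 in myb30, from 12.8 to 30.3 in MYB30-OE and from 12.97 to 28.9 in Col. Each level is a mean of the estimates from the 2 tables that hold the genotype, which differed by 0.416% to 2.09%.

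**Figure D1:**
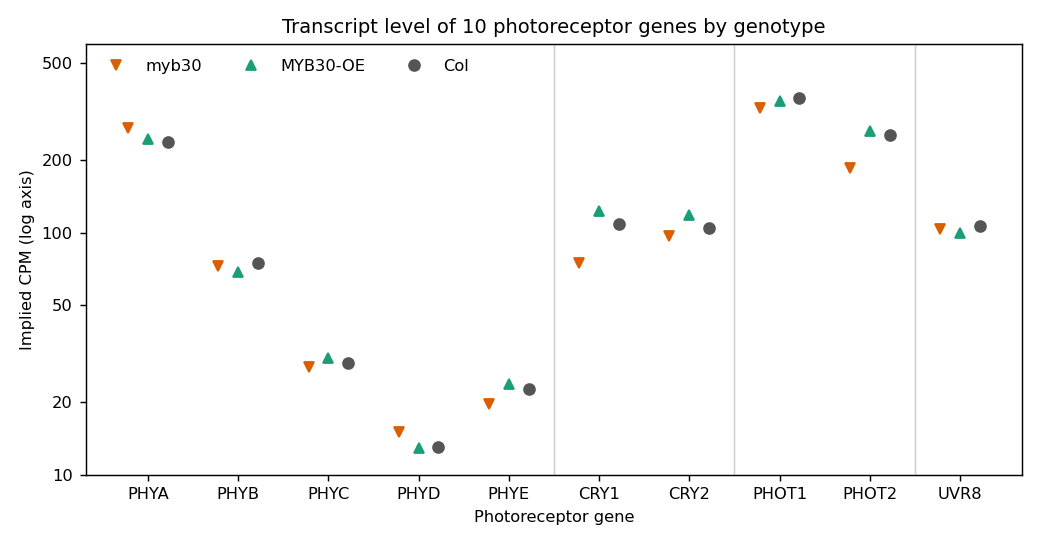
Implied CPM (log axis) of each of the 10 photoreceptor genes in myb30, MYB30-OE and Col, as derived from the deposited tables; each point stands for 3 libraries, whose single values are not in the tables. CRY1 and PHOT2 lie visibly lower in myb30 (74.9 and 184) than in Col (108 and 252), while the points of the other genes lie close together.

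Per kilobase of annotated exon, PHYA made up most of the phytochrome transcripts, with 66.6% in myb30, 64.0% in MYB30-OE and 62.9% in Col. PHYB followed with 17.2% in myb30, 17.4% in MYB30-OE and 19.1% in Col, and PHYC, PHYE and PHYD came after it in that order in each genotype. On the same scale of implied CPM per kilobase, CRY1 stood at 0.759 times CRY2 in myb30, 1.02 times in MYB30-OE and 1.02 times in Col. PHOT1 led all members with 95.9 per kilobase in myb30, 103 in MYB30-OE and 105 in Col, and PHYD was last with 4.31 in myb30, 3.68 in MYB30-OE and 3.71 in Col. With no values of single libraries, neighbours in this order cannot be compared beyond their spread.

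The members are spread over all 5 chromosomes. CRY1 (AT4G08920) occupies bases 5724103 to 5727253 of chromosome 4, plus strand (TAIR10, deposited annotation), and CRY2 (AT1G04400) bases 1185550 to 1188517 of chromosome 1, minus strand. PHOT1 (AT3G45780) occupies bases 16816866 to 16824210 of chromosome 3, plus strand. PHYA (AT1G09570) spans 3095256 to 3100357 on the minus strand of chromosome 1, PHYB (AT2G18790) 8139881 to 8144430 on the plus strand of chromosome 2, and UVR8 (AT5G63860) 25554508 to 25559499 on the minus strand of chromosome 5. PHYC (AT5G35840) spans 14007826 to 14011764 on the plus strand of chromosome 5. PHYD (AT4G16250) spans 9195602 to 9199486 and PHYE (AT4G18130) 10042137 to 10046082, both on the minus strand of chromosome 4, and PHYE shares 112 exon bases with ML3 (AT4G18120), its neighbour on the opposite strand.

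PHOT2 (AT5G58140) calls for care. It occupies bases 23524427 to 23533111 of chromosome 5, plus strand, and 3 of its 4 annotated models end in a long last exon that holds the whole of AT5G58150, a protein-coding locus of the opposite strand (23530081 to 23532840). Of 6501 exon bases of PHOT2, 2760 are shared with that locus. AT5G58150 is listed without reads in all 3 tables. Of 81 genes whose exons lie wholly within the exons of 1 gene on the opposite strand, 71 were listed without reads, or 87.7%, against 15.1% of all 28276 genes of the annotation in the table. Transcripts of AT5G58150 and of PHOT2 therefore cannot be told apart in the shared stretch. If the shared bases are left out of its length, PHOT2 had 49.2 implied CPM per kilobase in myb30, 70.4 in MYB30-OE and 67.3 in Col. With all its exon bases counted it had 28.3 in myb30, 40.5 in MYB30-OE and 38.7 in Col. On the shorter length PHOT2 came right after PHOT1 in MYB30-OE and Col, and after PHOT1 and PHYA in myb30. Only the length was changed, not the reads. If reads of the shared stretch were counted to PHOT2, the values on the shorter length are too high, and its rank may be too.

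Reads of relatives can be mistaken for each other where their sequences match, so the longest runs that they share letter for letter are shown. PHYB and PHYD, the phytochrome pair with the longest such run, share a coding stretch of 43 bases (chromosome 2, 8142024 to 8142066, plus strand, and chromosome 4, 9197487 to 9197529, minus strand). PHOT1 and PHOT2 share a coding stretch of 30 bases (chromosome 3, 16821492 to 16821521, and chromosome 5, 23527287 to 23527316, both plus strand), and CRY1 and CRY2 none longer than 17. Both runs were read from the TAIR10.1 sequence and are written on the coding strand.
PHYB and PHYD: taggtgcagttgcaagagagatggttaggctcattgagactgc
PHOT1 and PHOT2: ttccacttgcaacctatgcgtgatcagaag
None of the 50-base windows within single exons of the 10 members occurs in the nuclear genome outside its own gene. A read at least that long, within 1 exon and with no mismatch, thus fits 1 gene only. Reads across exon junctions were not checked.

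In myb30, CRY1 and PHOT2 fell relative to Col, and none of the 10 photoreceptor genes rose. The cryptochrome CRY1 had 75.0 implied CPM in myb30, against 109 in Col of the same table. The authors' deposited table gives it a log2 fold change of -0.54 (approximate SE 0.113, 95% interval -0.76 to -0.32, adjusted p = 2.82e-05), a 1.46-fold lower level. PHOT2 had 184 implied CPM in myb30, against 254 in Col. Its log2 fold change in the authors' deposited table is -0.46 (approximate SE 0.115, interval -0.69 to -0.24, adjusted p = 6.76e-04), a 1.38-fold lower level. Of 25713 genes tested, 21.5% passed in this comparison, 10.8% higher and 10.7% lower. The 2 of 10 photoreceptor genes that passed are close to that share, so the count says nothing particular about photoreceptors as a group. The median log2 fold change of the 10 members was -0.09, against 0.01 over all genes tested.

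The relatives of these genes did not pass. CRY2 had 97.3 implied CPM in myb30 and 105 in Col, a ratio of 0.925 with an interval of 0.791 to 1.08. PHOT1 had 327 implied CPM in myb30 and 361 in Col, and its ratio had an interval of 0.776 to 1.06. Whether CRY1 differs in its response from CRY2, or PHOT2 from PHOT1, was not tested. UVR8 had 104 implied CPM in myb30 and 108 in Col (adjusted p = 0.801, from the authors' deposited p-value).

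None of the 5 phytochrome genes passed in myb30. PHYA had 272 implied CPM in myb30 and 239 in Col, a log2 fold change of 0.19 in the authors' deposited table (interval -0.026 to 0.40, adjusted p = 0.231). PHYB had 73.1 implied CPM in myb30 and 75.7 in Col (log2 fold change -0.05 in the authors' deposited table, interval -0.33 to 0.23, adjusted p = 0.88). PHYC, PHYD and PHYE had log2 fold changes of -0.06, 0.20 and -0.22 in the authors' deposited table. The summed implied CPM of the 5 genes was 407 in myb30 and 380 in Col, or 1.07 times. At the precision of this table, the smallest change that would have passed was about 1.21-fold for PHYA, 1.29-fold for PHYB and 1.34-fold for PHYD, so smaller changes were not detectable.

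**Figure D2:**
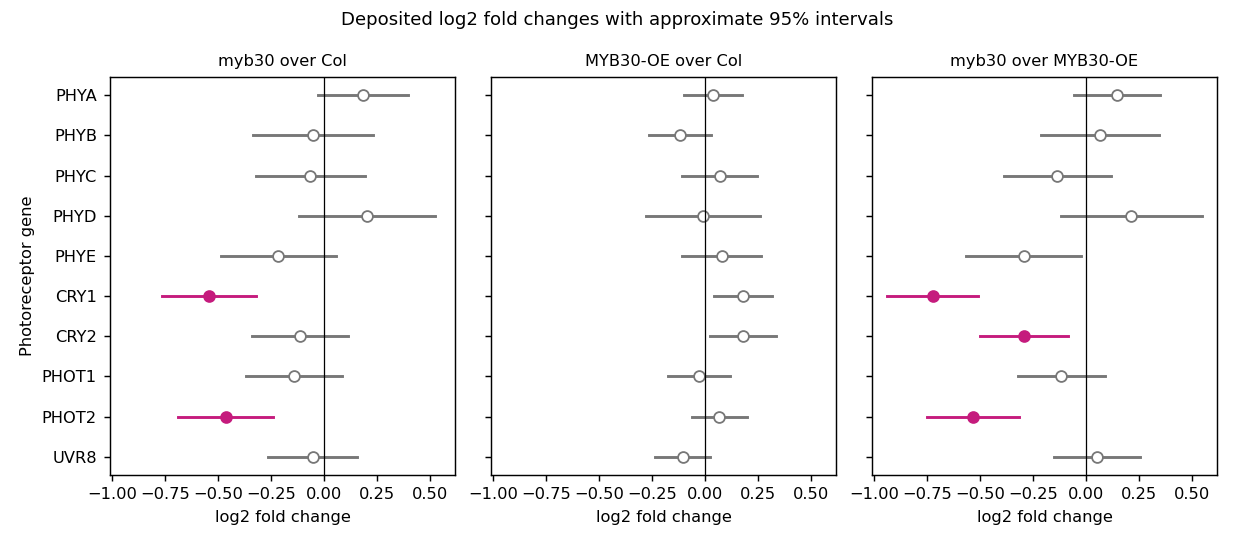
Deposited log2 fold change (horizontal axis) of each photoreceptor gene in the 3 comparisons; points are the deposited values, bars the approximate 95% intervals derived from the deposited p-values, and filled points passed an adjusted p of 0.05. CRY1 (-0.54) and PHOT2 (-0.46) lie left of zero in myb30 over Col, no gene passed in MYB30-OE over Col, and CRY1, CRY2 and PHOT2 passed in myb30 over MYB30-OE.

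In MYB30-OE, where MYB30 was 19.5-fold higher than in Col, none of the 10 photoreceptor genes passed, while 11.5% of 25593 genes tested did (5.99% higher and 5.49% lower) by the authors' deposited p-values with Benjamini-Hochberg adjustment. Unadjusted p-values under 0.05 were found for 2 members, against 21.8% of all genes. These were CRY1, with 121 implied CPM in MYB30-OE and 107 in Col (log2 fold change 0.18 in the authors' deposited table, adjusted p = 0.0774), and CRY2, with 117 in MYB30-OE and 103 in Col (0.18 in the same deposited table, adjusted p = 0.138). The adjusted p of CRY1 lay between 0.0635 and 0.103 over the filters tried on low genes. PHOT2 had 261 implied CPM in MYB30-OE and 249 in Col, a ratio of 1.05 with an interval of 0.958 to 1.15.

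The phytochromes lay close to Col in MYB30-OE. PHYA had 240 implied CPM in MYB30-OE and 234 in Col, and the interval of its ratio ran from 0.935 to 1.13. PHYB had 68.3 implied CPM in MYB30-OE and 74.2 in Col, with an interval of 0.833 to 1.02 for the ratio. PHYC, PHYD and PHYE had log2 fold changes of 0.07, -0.01 and 0.08 in the authors' deposited table. UVR8 had 98.3 implied CPM in MYB30-OE and 105.8 in Col, and PHOT1 had 347 in MYB30-OE and 354 in Col. Errors were smaller here than in the tables with myb30, with a median SE of the members of 0.074 on the log2 scale, against 0.115 in myb30 over Col. The smallest change that would have passed was accordingly about 1.14-fold for CRY1 and for PHYA and 1.15-fold for PHYB.

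Set directly against MYB30-OE, myb30 differed in 3 members. This comparison tests the difference between the effects of loss and gain. CRY1 had 74.7 implied CPM in myb30 and 123 in MYB30-OE, a log2 fold change of -0.72 in the authors' deposited table (approximate SE 0.110, adjusted p = 9.41e-10). PHOT2 had 183 implied CPM in myb30 and 265 in MYB30-OE (log2 fold change -0.53 in the authors' deposited table, SE 0.111, adjusted p = 1.68e-05). CRY2 had 96.9 implied CPM in myb30 and 119 in MYB30-OE (log2 fold change -0.29 in the authors' deposited table, SE 0.107, adjusted p = 0.0229). All 3 were lower in myb30, and 3 of 10 is again close to the 31.6% of 25647 genes that passed in this table (16.2% higher and 15.4% lower). PHYE had 19.5 implied CPM in myb30 and 23.9 in MYB30-OE and missed the threshold (adjusted p = 0.0897, from the authors' deposited p-value). This table shares its libraries with the other comparisons and adds no independent evidence.

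**Figure D3:**
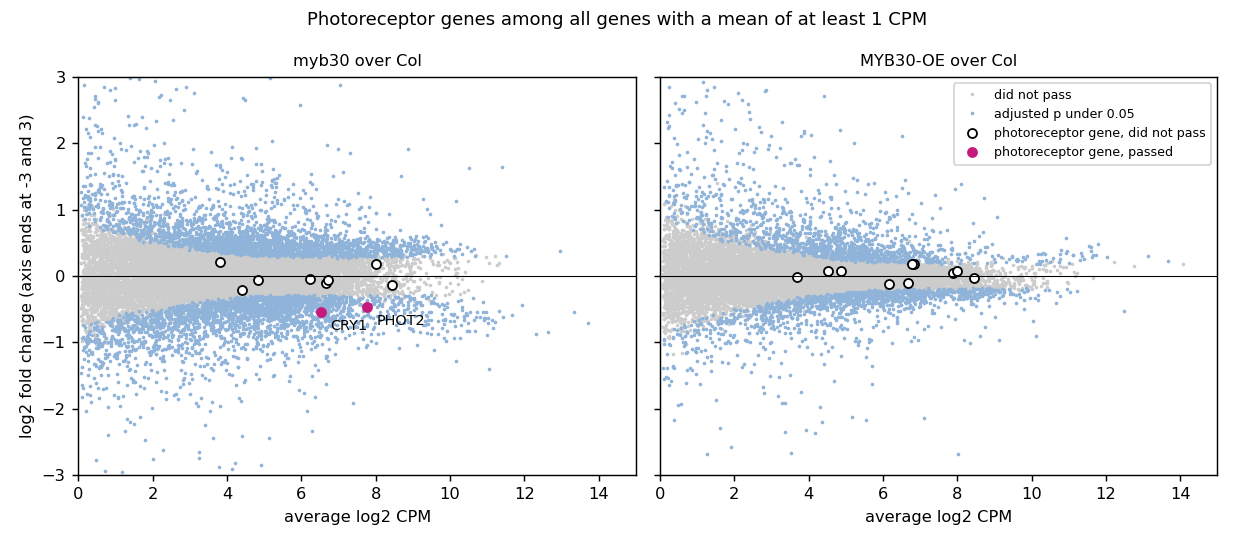
Deposited log2 fold change (vertical axis, drawn from -3 to 3) against average log2 CPM (horizontal axis) for all genes averaging 1 CPM or more, with the photoreceptor genes as large points. In myb30 over Col, CRY1 (-0.54) and PHOT2 (-0.46) lie among the blue points of genes that passed at their level; in MYB30-OE over Col the 10 members lie within the grey band of genes that did not pass.

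The change of CRY1 in myb30 was larger than that of 68.9% of all genes tested, low genes included. For the 18641 genes averaging 1 CPM or more in that table, the median absolute log2 fold change was 0.237, while CRY1 had -0.54. Among 18394 genes averaging 1 CPM or more in both tables, the 3 with the pair of log2 fold changes (myb30 and MYB30-OE, each over Col) nearest to that of CRY1 were AT1G16260, CSK and AT1G27480. CSK, a chloroplast sensor kinase gene, had log2 fold changes of -0.54 in myb30 and 0.17 in MYB30-OE in the authors' deposited tables, at a distance of 0.0067 from CRY1. CSK did not pass in MYB30-OE, and AT1G16260 lay nearer to CRY1, at 0.0054. In all, 67 genes lay within 0.05 of CRY1. That distance is smaller than the approximate SE of CRY1 itself (0.113 in myb30 and 0.070 in MYB30-OE), so the order among these genes is not resolved. This likeness rests on 2 fold changes that share the Col libraries.

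The 250 bases before the annotated start of CRY1 and CRY2 are shown because the 2 genes are close relatives of which only CRY1 passed in myb30. Whether their responses differ, or whether these bases play a part, was not tested. The starts are those of the RefSeq annotation of TAIR10.1, which reaches 452 bases further out than the deposited one for CRY1 and 179 for CRY2. The CRY1 stretch is chr4:5723401-5723650 (plus strand) and the CRY2 stretch chr1:1188697-1188946 (minus strand), with capitals for the I-box core GATAA on either strand, an element known from light-regulated promoters.
CRY1: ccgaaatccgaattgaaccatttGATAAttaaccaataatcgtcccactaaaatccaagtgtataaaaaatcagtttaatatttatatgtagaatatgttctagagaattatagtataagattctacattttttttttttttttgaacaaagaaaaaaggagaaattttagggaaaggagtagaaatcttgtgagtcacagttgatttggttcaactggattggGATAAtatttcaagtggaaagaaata
CRY2: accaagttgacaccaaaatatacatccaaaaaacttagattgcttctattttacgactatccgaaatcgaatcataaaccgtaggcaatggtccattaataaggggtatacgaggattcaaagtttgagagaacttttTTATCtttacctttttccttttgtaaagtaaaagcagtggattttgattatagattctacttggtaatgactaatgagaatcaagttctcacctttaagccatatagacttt
GATAA was found on either strand in 7 of the 10 photoreceptor windows and in 54.9% of 27443 windows of protein-coding genes. The G-box CACGTG, bound by PIFs and by HY5, was found in the windows of PHYB and PHYD and in 6.49% of all windows. The letters AACNAAC, a MYB-type element, were in none of the 10 and in 21.2% of all windows, both strands searched. Other MYB-type sequences were not searched, so these windows may hold some. No 2 matches in the member windows overlapped. The PHOT2 window is not shown, and it overlaps the neighbouring gene ROS3 (AT5G58130). The PHYD and PHYE windows, counted above, also overlap a neighbouring gene (AT4G16260 and AT4G18140).

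Genes of chromophore synthesis, partners and some targets of the receptors, and 4 other light receptor genes were read from 6 lists with 47 genes, of which 46 had reads. Against Col, 2 rose and 15 fell in myb30, and 2 rose and 9 fell in MYB30-OE. Of all genes tested, 10.8% rose and 10.7% fell in myb30, and 5.99% rose and 5.49% fell in MYB30-OE. Most of the falls in myb30 were in the phototropin list, described by its counts and median only. The lists were chosen with earlier results of these data known, so their counts beside those of all genes are no independent evidence.

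Of 11 phototropin partners, 9 fell in myb30 and none rose, against 10.7% of all genes lower, and the list median was -0.59 in the authors' deposited table. As the list was chosen with earlier results known, this count describes the list and does not test it. CHUP1, which anchors chloroplasts to actin for their movement, had 108 implied CPM in myb30 and 200.3 in Col (1.85-fold lower in the authors' deposited table, adjusted p = 4.23e-09). Other chloroplast movement genes fell as well, with PMI2 1.88-fold, JAC1 1.59-fold and the kinesin-like KAC1 1.39-fold lower, and WEB1 at 40.8 implied CPM in myb30 and 61.3 in Col. RPT2, a signal transducer that binds phototropin 1, was 1.34-fold lower, with 244 implied CPM in myb30 and 326 in Col. BLUS1, the guard-cell kinase that phototropins phosphorylate, was 2.46-fold lower (1.44 implied CPM in myb30, 3.54 in Col). The PHYTOCHROME KINASE SUBSTRATE genes PKS4 and PKS2 were 1.57-fold and 1.34-fold lower, with PKS2 near the threshold (adjusted p = 0.0424, from the authors' deposited p-value). NPH3, the central transducer of phototropism, had 81.0 implied CPM in myb30 and 80.2 in Col, and PKS1 had 28.2 in myb30 and 32.7 in Col, and neither passed. In MYB30-OE, RPT2 (1.22-fold) and PMI2 (1.32-fold) fell and none of the 11 rose, against 5.49% of all genes lower and 5.99% higher, with a list median of 0.03 in the authors' deposited table.

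Green tissue markers fell in myb30, as did PHOT2 and 9 of the 11 phototropin partners. Over all genes tested, 10.8% were higher and 10.7% lower in myb30. In MYB30-OE 5.99% were higher and 5.49% lower. All 4 green tissue markers, RBCS1A, LHCA1, LHCB2.2 and LHCB3, fell in myb30, by 1.35-fold to 1.64-fold, and their summed level was 13806 implied CPM in myb30 and 22155 in Col. In MYB30-OE 3 of the 4 rose and RBCS1A did not pass (adjusted p = 0.0625, from the authors' deposited p-value), with sums of 25564 in MYB30-OE and 21707 in Col. The guard cell marker FAMA (8.48 implied CPM in myb30, 13.5 in Col) and the phloem marker SUC2 (47.8 in myb30, 63.0 in Col) fell in myb30 too. Of 6 root markers 2 rose in myb30, EXPA7 2.36-fold and COBL9 1.38-fold, and the same 2 rose in MYB30-OE. The 6 summed to 90.6 implied CPM in myb30 and 76.9 in Col, and to 82.6 in MYB30-OE and 75.3 in Col. EXPA7 alone had 25.3 implied CPM in myb30 and 10.7 in Col, while SCR, SHR, PLT1 and PLT2 did not pass in either line, with log2 fold changes of -0.05, -0.35, 0.36 and -0.08 in myb30 in the authors' deposited table. The 4 seed reserve genes CRA1, CRB, CRC and OLEO1 rose in both lines, with sums of 454 implied CPM in myb30 and 10.7 in Col, and 92.5 in MYB30-OE and 10.4 in Col. No marker list had a member at 0. The part of tissue make-up in the falls of CRY1 and PHOT2 was not tested.

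**Figure D4:**
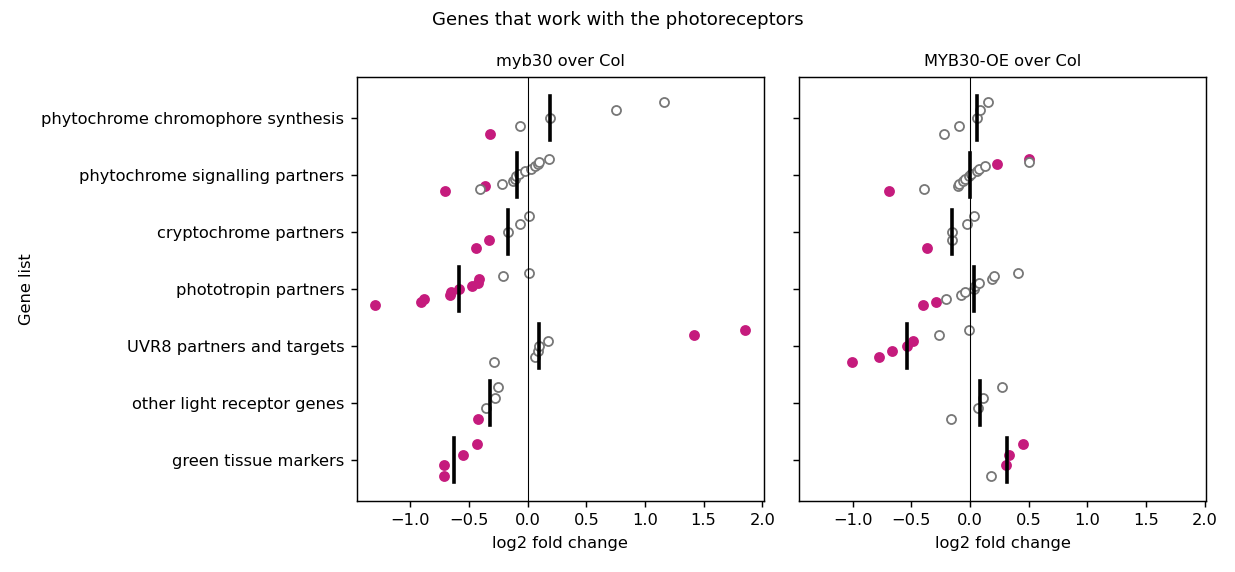
Deposited log2 fold changes (horizontal axis) of single genes in 6 lists (chromophore synthesis, partners and targets of the photoreceptors, and other light receptor genes) and in the green tissue markers, in myb30 over Col and MYB30-OE over Col; filled points passed an adjusted p of 0.05 and black bars are list medians. In myb30, 9 of 11 phototropin partners and all 4 green tissue markers lie left of zero and passed, against 10.7% of all genes lower. In MYB30-OE, 5 of 7 UVR8 partners and targets lie left of zero and passed, against 5.49% of all genes lower. The lists were chosen with earlier results of these data known.

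Partners and outputs of UVR8 differed between the genotypes although UVR8 itself did not pass. ELIP1 and ELIP2, chloroplast proteins induced by strong light and UV-B, were 3.62-fold and 2.66-fold higher in myb30 than in Col, with 247 and 110 implied CPM in myb30, against 68.2 and 41.2 in Col. Both fell in MYB30-OE, by 1.71-fold and 1.59-fold. CHS (chalcone synthase, 2.01-fold), HYH (a bZIP partner of HY5, 1.45-fold) and RUP2 (a repressor that returns UVR8 to its dimer, 1.40-fold) were lower in MYB30-OE as well. In myb30 none of these 3 passed, and HY5 and RUP1 passed against Col in neither line. In all, 2 of the 7 genes rose in myb30, against 10.8% of all genes, and 5 of the 7 fell in MYB30-OE, against 5.49% of all genes. The median of the 7 genes was 0.09 in myb30 and -0.53 in MYB30-OE in the authors' deposited tables. These genes respond to several light qualities and stresses, and the plants had white light with no UV-B named in the labels.

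Among 14 phytochrome signalling partners, PIF7 (1.63-fold) and PIF5 (1.28-fold) fell in myb30 and none rose. This count of falls is close to the 10.7% of all genes lower, so it says nothing particular about the list. PIF4 was 1.32-fold lower in myb30 and did not pass (adjusted p = 0.065, from the authors' deposited p-value). In MYB30-OE, where 5.99% of all genes rose and 5.49% fell, PIF4 (1.42-fold) and PIF5 (1.17-fold) rose. The rise of PIF5 passed only narrowly (adjusted p = 0.0489, from the authors' deposited p-value). HMR, a protein of plastid transcription and of phytochrome signalling, fell 1.61-fold in MYB30-OE (92.7 implied CPM in MYB30-OE, 149 in Col, adjusted p = 6.01e-21 from the authors' deposited p-value). The phytochrome A import genes FHY1 and FHL and their activators FHY3 and FAR1 passed in neither line, with log2 fold changes from -0.22 to -0.08 in myb30 and from -0.39 to 0.08 in MYB30-OE in the authors' deposited tables. Of 5 genes of chromophore synthesis, HY1, the main haem oxygenase gene, fell 1.25-fold in myb30 (103 implied CPM in myb30, 129 in Col, adjusted p = 0.0178 from the authors' deposited p-value), and none passed in MYB30-OE. HO3 and HO4 were below 1 implied CPM.

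Of 6 cryptochrome partners, CIB1 was listed without reads. SPA4 was 1.35-fold and SPA3 1.25-fold lower in myb30, and SPA4 was 1.29-fold lower in MYB30-OE. SPA3 lay near the threshold in myb30 (adjusted p = 0.0391, from the authors' deposited p-value). Over all genes tested, 10.7% were lower in myb30 and 5.49% in MYB30-OE. COP1, the ligase that the SPA proteins assist, had 45.5 implied CPM in myb30 and 45.1 in Col, and 39.8 in MYB30-OE and 44.2 in Col, and passed in neither. Among the other light receptor genes, ZTL, a LOV-domain F-box protein of the clock, was 1.34-fold lower in myb30 (adjusted p = 0.0028, from the authors' deposited p-value), while CRY3, FKF1 and LKP2 did not pass, and none of the 4 passed in MYB30-OE. The 4 had log2 fold changes between -0.42 and -0.26 in myb30 in the authors' deposited table.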

How the data were processed

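RNA sequencing compared 3 genotypes with 3 libraries each. Per the submitters' processing notes, TopHat, Cufflinks, Cuffdiff and the TAIR10 build were used. The counting step and its strand setting are not given in the sources used here. Per the file headers, the tables the authors deposited hold log2 fold changes, average log2 CPM values and p-values without adjustment. Tables were tied to genotypes by the sample descriptions in the labels.

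Genes at the floor of the average log2 CPM were taken as without reads, and Benjamini-Hochberg adjustment ran over the rest. Implied CPM assumed 2 added reads per library in the average, 0.125 in the fold change and equal library sizes. The SE is the absolute log2 fold change over the normal deviate of its p-value. Both are approximate. Simulated data made with these same assumptions checked the arithmetic only, not the assumptions.

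The deposited annotation gave coordinates and exon lengths. Of its 35176 coding models, 99.96% start with ATG in TAIR10.1, so sequence was read there. RefSeq (TAIR10.1) gave symbols for all 10 members, and 11 of 74 list entries whose symbol it does not give were left out. The named genes are the members, MYB30, list genes that passed against Col and the 3 genes nearest to CRY1; others were named after their values were seen. The members and lists were chosen with earlier results of these data known. Alternatives are given in the closing section. Transposable element tables were not used. Python 3.11.15, pandas 2.3.3, SciPy 1.17.1 and matplotlib 3.10.9 were used.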

Additional observations from a re-analysis of the deposited data

Results flagged for a closer look

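In myb30 against MYB30-OE, which tests whether the effects of the 2 lines against Col differ, 3 of the 10 photoreceptor genes passed, a share close to the 31.6% of all genes that did. The deposited log2 fold changes were -0.72 for CRY1, -0.29 for CRY2 and -0.53 for PHOT2. In CRY1 and PHOT2 the myb30 side passed against Col on its own, and in CRY2 neither line did, with 97.1 implied CPM in myb30, 118 in MYB30-OE and 104 in Col.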

How the results depend on the processing

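No paired analysis was possible because the tables hold no values of single libraries, and for the same reason no library could be left out. The 2 photoreceptor genes called in myb30 against Col became 1 (CRY1) under Bonferroni adjustment and 0 with a 2-fold minimum, and the 3 called in myb30 against MYB30-OE became 0 with a 2-fold minimum. An adjusted p of 0.01 gave 2 in each of these comparisons. In MYB30-OE against Col the count was 0 under every setting. Over all genes, the calls numbered 3561 in myb30 against Col with an adjusted p of 0.01, 1306 with Bonferroni and 1330 with a 2-fold minimum, against 5536. In MYB30-OE against Col they numbered 1876, 752 and 669 under the same 3 settings, against 2939, and in myb30 against MYB30-OE Bonferroni gave 2551 and a 2-fold minimum 2157, against 8092. These settings are stricter by construction. The log2 fold changes of the 10 members kept their sign in all 120 values over 4 alternatives (2 other filters on low genes, median centring and a pseudocount of 1). The filters leave fold changes as they are and a pseudocount cannot turn their sign, so only median centring could have changed it. Under both filters each member kept its side of the threshold. The length used for PHOT2, an alternative added after the data were seen, changed its level per kilobase to 49.2 in myb30 (28.3 over all exon bases), 70.4 in MYB30-OE (40.5) and 67.3 in Col (38.7).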
